A study of Danio rerio with 2 samples.

Results

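The regions described here are stretches of open chromatin that stood alone in 2 zebrafish melanoma cell lines: no other open region, of either line, lay within 50 kb on either side. Peaks of both lines were joined into union intervals wherever at least 1 bp overlapped on chromosomes 1 to 25, which gave 81157 intervals. Of these, 534 had their nearest neighbour more than 50 kb away on both sides, or 0.658% (95% exact binomial interval 0.604% to 0.716%), after the first and last interval of each chromosome, 50 in all, had been dropped. The typical gap between neighbouring intervals was far shorter, with a median of 9867 bp. These intervals were chosen by the positions of the called peaks in both lists, so their isolation, and the numbers that follow from it, are a description with no test.

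ATAC-seq uses a transposase that cuts accessible DNA and inserts sequencing adapters at the cut. Both lines, zcrest 1 and zcrest 2, carry the listed p53, BRAF and Na alterations (the abbreviation Na is not expanded in the labels), a crestin:EGFP reporter and MiniCoopR alone, and both were past 20 passages. p53 is a tumour suppressor and BRAF a kinase that is often mutated in melanoma. Melanocytes derive from the neural crest, whose cells the crestin reporter marks. MiniCoopR, a transposon vector, carries a mitfa minigene that restores melanocytes. Each line was represented by 1 library of 50000 cells, so there are no replicates, no p-values, and no test of a difference between the lines. Intervals of 95% cover counting error only, and neighbouring intervals are not independent. The lists held 63332 peaks of zcrest 1 and 53129 of zcrest 2 on the numbered chromosomes. The total number of reads is unknown, and depth is seen only through the genome-wide background, 1.57 reads in zcrest 1 and 2.01 in zcrest 2. Positions refer to Zv9. Genes were not assigned, since a Zv9 annotation was not used.

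Open regions in vertebrate genomes tend to lie in groups, at promoters and at the enhancers around active genes. Long stretches with few open regions are found in gene-poor DNA and in heterochromatin, the compacted form of chromatin. A lone open region in such a stretch can be a distant enhancer, an insulator site bound by CTCF, or the promoter of an isolated gene. A peak list by itself does not tell these apart.

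Most isolated intervals had a called peak of a single line, as did 46935 of the 80623 other intervals. Here and below, open in a line means that a peak was called in it. An interval without a call may still be open below the calling threshold. Of the 534, 158 held a peak of both lines, or 29.6% (25.7% to 33.7%), where 41.7% of all 81157 intervals did. Another 240 were found in zcrest 1 alone, or 44.9% (40.7% to 49.3%), against 35.3% of all intervals. In zcrest 2 alone there were 136, or 25.5% (21.8% to 29.4%), against 23% of all intervals. Among the 80623 other intervals, 41.8% were in both lines (41.4% to 42.1%), which is above the interval of the isolated ones. The single-line isolated intervals divided between the lines much as the others did, with 63.8% in zcrest 1 (58.7% to 68.7%) against 60.6% of the other single-line intervals. Because no interval of either list lay within 50 kb, the 376 single-line intervals had no called counterpart in the other line over at least that distance. The share in both lines was measured against the same lists that defined isolation, and it was not tested.

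The lower share in both lines went with fewer reads. The summit, the position of highest read depth in a peak, had a median of 16 reads in zcrest 1 at isolated intervals (interval of the median 15 to 17) and of 19 elsewhere (18 to 19). In zcrest 2 the medians were 15 reads (14 to 16) and 19 reads (19 to 20). Very strong regions were uncommon among the isolated ones. Only 5.53% of those with a peak of zcrest 1 held one from the strongest 10% of that list (3.50% to 8.25%), against 10.1% of the other intervals, and in zcrest 2 the shares were 6.46% (3.94% to 9.91%) and 10.1%. Where the nearer neighbour lay 25 to 50 kb away, the shares were 8.24% in zcrest 1 and 9.50% in zcrest 2. With a neighbour up to 1 kb away they were 8.10% and 9.15%. These values lie inside the intervals of the isolated ones. The shares were highest with a neighbour 5 to 10 kb away, at 12.7% and 11.8%. A deposited -log10 q of at least 10 in either line, a measure of how far a summit rises above its background, was reached by 203 isolated intervals, or 38.0% (33.9% to 42.3%), against 43.2% of all intervals. That share was 40.8% with the nearer neighbour 25 to 50 kb away and 41.6% with one up to 1 kb away. It was 43.1% to 44.3% at the distances between.

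A graded relation was seen when all intervals were ordered by the distance to their nearer neighbour. Where a neighbour lay up to 1 kb away, 46.1% of intervals were in both lines, and the share was 41.5%, 41.2%, 40.2% and 36.7% in the classes of 1 to 5, 5 to 10, 10 to 25 and 25 to 50 kb. The isolated intervals, at 29.6%, were the lowest class. Over the same 6 classes the median summit was 20, 20, 18, 17, 16 and 16 reads in zcrest 1. In zcrest 2 it was 22, 20, 18, 18, 17 and 15 reads. From the class of 25 to 50 kb to the isolated intervals, the median in zcrest 1 thus stayed at 16 reads. The middle 50% moved from between 12 and 25 reads to between 11 and 23. Over that step the share of intervals with a peak of zcrest 1 that also had one of zcrest 2 went from 47.8% to 39.7%. In zcrest 2 the median went from 17 to 15 reads, and the share that also had a peak of zcrest 1 from 61.1% to 53.7%. The part of reads in this step was not tested. Intervals with a gap of more than 50 kb on 1 side and a closer neighbour on the other, 8383 in number, lay between, with 38.1% in both lines (37.0% to 39.1%). The 926 intervals that directly flank an isolated one, and are not isolated themselves, were in both lines in 34.2% of cases (31.2% to 37.4%).

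**Figure D1:**
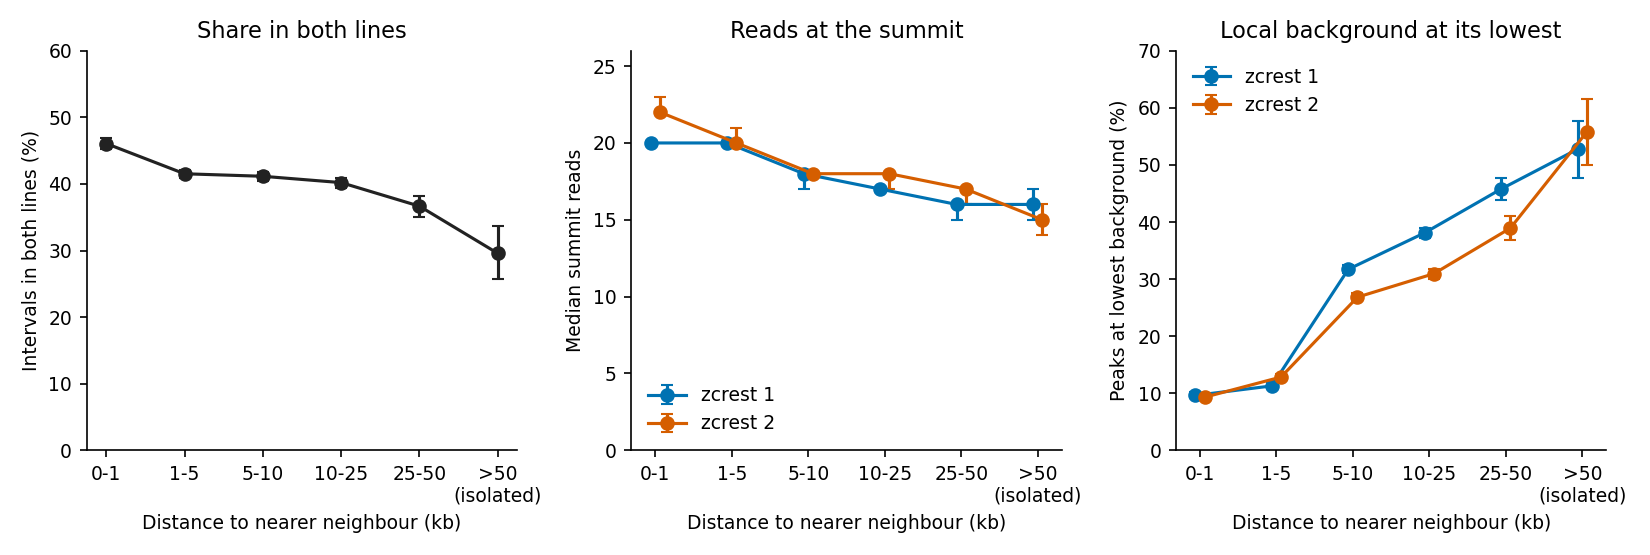
Share of intervals in both lines (left, %), median summit reads per line (middle) and share of peaks whose local background is the lowest possible value (right, %), by distance to the nearer neighbouring interval in kb; bars are 95% intervals, which cover counting error only. The share in both lines is 46.1% where a neighbour lies up to 1 kb away and 29.6% in the isolated intervals, while the share of peaks at the lowest background goes from 9.62% to 52.8% in zcrest 1.

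At equal strength the gap to the other intervals was smaller, by an amount that depended on the measure. With strength taken as the higher summit reads of both lines, the planned measure, the others weighted to the strength of the isolated intervals stood at 30.5%, inside the interval of the isolated ones (25.7% to 33.7%). That measure is by construction higher where both lines have a peak, so a second comparison was added after the data were seen. In it, the intervals with a peak of a given line were divided into 10 classes by the summit reads of that line alone, and the other intervals were weighted to the classes of the isolated ones. Of the 398 isolated intervals with a peak of zcrest 1, 39.7% also had a peak of zcrest 2 (34.9% to 44.7%), against 54.2% of the others and 47.3% of the others after weighting. Of the 294 with a peak of zcrest 2, 53.7% also had one of zcrest 1 (47.9% to 59.5%), against 64.55% of the others and 55.8% after weighting. The weighted value thus lay outside the interval in zcrest 1 and inside it in zcrest 2. With chromosome and reads weighted together, the values for the others were 45.2% and 56.0%, and the first of them was also outside the interval. Weighted by -log10 q in place of reads, the others stood at 51.6% and 60.2%, above the interval of the isolated ones in both lines.

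In 1 class only, that of fewest reads in zcrest 1, did the share of the others fall outside the interval of the isolated ones. In zcrest 1, 75 isolated intervals had 7 to 10 reads at the summit, and 9 of them, or 12.0% (5.64% to 21.6%), had a peak of zcrest 2, against 25% of the other intervals in that class. Neither the reads within a class nor the local background were matched. In the other 9 classes of zcrest 1, and in all 10 of zcrest 2, the share of the other intervals lay inside the interval of the isolated ones. The share of isolated intervals was the lower one in 8 of 10 classes in zcrest 1 and in 5 of 10 in zcrest 2. Isolated intervals were crowded into the class of fewest reads, which held 18.8% of them in zcrest 1 against 10.5% of the others, and 17.7% against 9.43% in zcrest 2. At 27 to 34 reads in zcrest 1, 26 of 33 isolated intervals (78.8%) were in both lines, and at 28 to 35 reads in zcrest 2, 24 of 25 (96.0%) were. The other intervals stood at 71.7% and 84.5% in these classes, inside the intervals of the isolated ones (61.1% to 91.0% and 79.6% to 99.9%). In other classes of zcrest 1 the isolated share was the lower one. It was 42.0% against 56.5% at 19 to 22 reads and 52.9% against 63.7% at 23 to 26 reads. At 48 to 299 reads it was 62.5%, from 5 of 8 intervals, against 88.1%, so the classes of more reads went both ways.

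**Figure D2:**
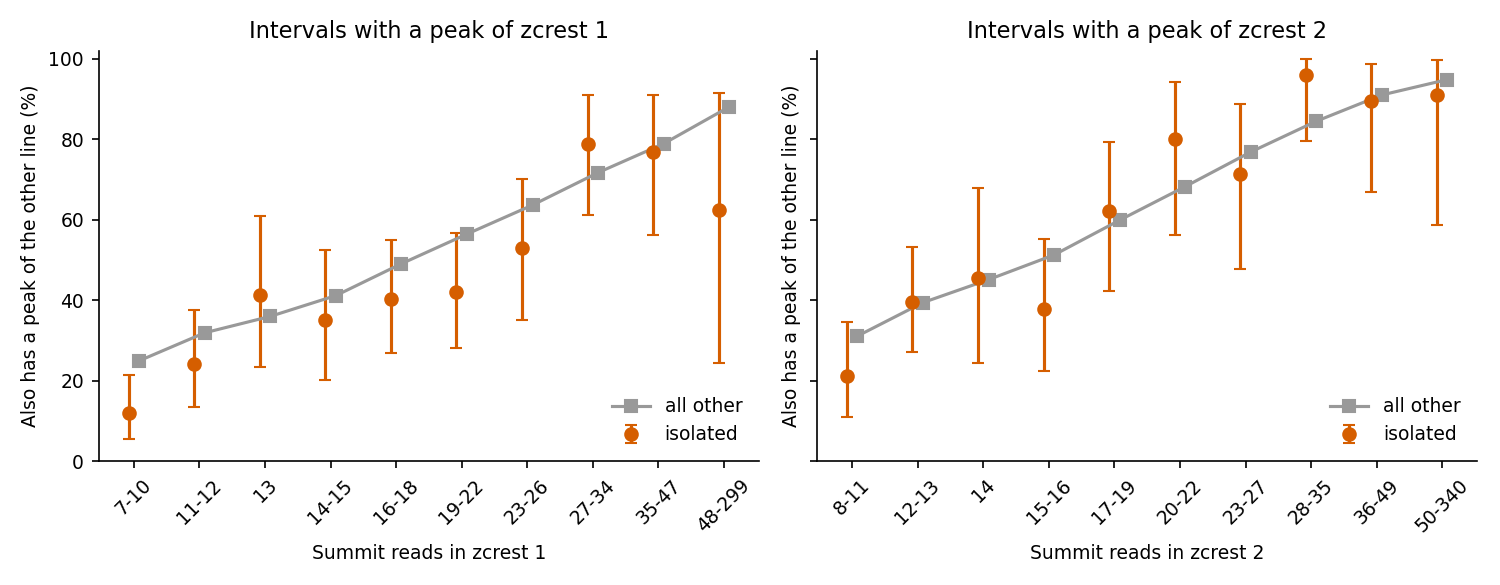
Share of intervals that also have a peak of the other line (%), by class of summit reads in zcrest 1 (left) and zcrest 2 (right); orange points are isolated intervals with 95% exact binomial intervals, grey squares all other intervals. The share is higher where reads are more numerous in both sets, and the isolated intervals of zcrest 1 with 7 to 10 reads, at 12.0%, lie below the other intervals at 25%.

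The result also depended on which list defines isolation. When each list was taken alone, 1024 peaks of zcrest 1 (1.62%) and 1536 of zcrest 2 (2.89%) had no other peak of their own list within 50 kb on either side. Of these, 38.3% and 19.0% were still isolated in the union of both lists, so in most cases the other line had an open region in the gap. Of the peaks of zcrest 1 isolated in their own list, 45.3% overlapped a peak of zcrest 2 (42.2% to 48.4%), against 47.4% of its other peaks at equal reads. Of those of zcrest 2, 62.8% overlapped a peak of zcrest 1 (60.3% to 65.2%), against 57.2% at equal reads. With isolation judged in 1 list only, the weighted value thus lay inside the interval in zcrest 1 and below it in zcrest 2, where the union rule had put it above and inside.

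The local background was at its lowest more often at isolated intervals than elsewhere. The peak caller compares each summit with a local background that cannot be lower than the genome-wide value. In zcrest 1, 52.8% of the isolated intervals (47.7% to 57.8%) were at that lowest value, against 23.2% of the others. In zcrest 2 the shares were 55.8% (49.9% to 61.5%) and 20.4%. The local background is taken over a window around the peak, so reads of the peak itself and of close neighbours can enter it. At isolated intervals in both lines its median was 1.68 reads in zcrest 1, with a median summit of 21 reads. At those in zcrest 1 alone the medians were 1.57 and 13 reads. The strongest isolated region, with 163 summit reads in zcrest 1, had a background of 7.88 reads. The part of a peak's own reads and that of its neighbours were not tested. Intervals without a neighbour within 10 kb but with one within 25 kb were at the lowest value in 38.1% of cases in zcrest 1 and 30.9% in zcrest 2, and those with one at 25 to 50 kb in 45.8% and 38.9%. The isolated intervals were above this last class in both lines. The counting intervals did not overlap, by a narrow margin in zcrest 1. With fewer reads over a lower background, the deposited fold enrichment was close to that elsewhere, at a median of 5.97 against 5.83 in zcrest 1 and 4.98 against 5.05 in zcrest 2.

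In union width the isolated intervals were close to the rest. Their median was 382 bp (358 to 401 bp), with the middle 50% between 263 and 537 bp, against a median of 401 bp elsewhere (399 to 403 bp). Only 10 were wider than 1000 bp, or 1.87% (0.902% to 3.42%), where 2.95% of all intervals were. Width went with presence in both lines, but a shared interval joins peaks of both lines, so its union width is in part set by the rule. Isolated intervals in both lines had a median width of 579 bp (538 to 614 bp), close to the 561 bp of other shared intervals, and those in 1 line 315 bp (298 to 336 bp) against 302 bp. The deposited peaks themselves are free of any widening by the union. At isolated intervals in both lines their medians were 482 bp in zcrest 1 and 431 bp in zcrest 2, against 343.5 and 283.5 bp at those in 1 line. Over all isolated intervals the medians were 393 bp (373 to 425 bp) in zcrest 1 and 342 bp (311 to 377 bp) in zcrest 2. Elsewhere they were 399 bp and 389 bp, inside the interval of the isolated ones in zcrest 1 and above it in zcrest 2. At equal summit reads the order turned: averaged over the read classes, the class medians were 404 bp for isolated peaks and 364 bp for the others in zcrest 1, and 384 bp and 356 bp in zcrest 2. In zcrest 1 the isolated median was the larger in every read class. In zcrest 2 it was the smaller at 8 to 11 reads (235 against 243 bp), 12 to 13 reads (256.5 against 258 bp) and 15 to 16 reads (298 against 304 bp). It was the larger in the remaining classes. No error was computed for these averages. The classes match summit reads but not the local background, which was at its lowest more often at isolated intervals. The part of the background in the called width was not tested, so no wider opening is read from these averages.

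**Figure D3:**
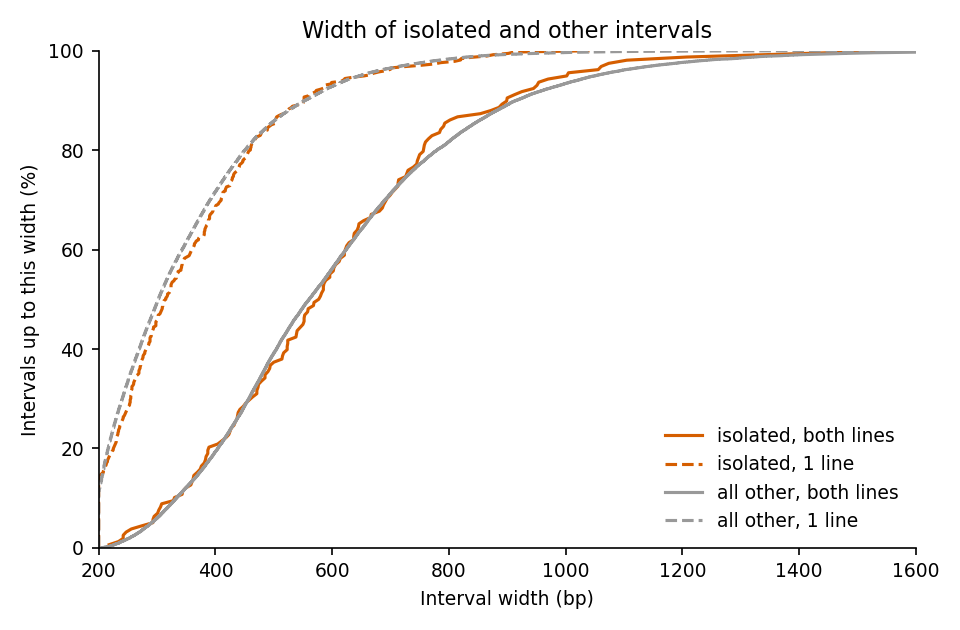
Cumulative share of intervals (%) by interval width in bp, for isolated intervals (orange) and all others (grey), in both lines (solid) or in 1 line (dashed). The curves separate by presence in both lines, with medians of 579 bp and 315 bp for isolated intervals, and less by isolation. An interval in both lines joins peaks of both, so its width is in part set by the rule.

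Where both lines had a peak in an isolated interval, their summits were close. An interval counts as shared only if peaks of the 2 lines overlap, so close summits are in part set by the rule. The peaks at shared isolated intervals had median widths of 482 bp in zcrest 1 and 431 bp in zcrest 2. The closest summits of the 2 lines were a median of 27.5 bp apart (23 to 40 bp) in the 158 shared intervals, against 31 bp in other shared intervals. They lay within 100 bp of each other in 133 of 158, or 84.2% (77.5% to 89.5%), against 77.3% elsewhere. Among intervals made of exactly 1 peak of each line, which leave no choice of summit, the shares were 84.1% (77.3% to 89.5%) and 77.1%, and the second lies just below the interval of the first. Most isolated intervals were simple in make-up: 376 consisted of 1 peak, 151 of 2 and 7 of 3 or more.

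Read numbers in the 2 lines were about as close at shared isolated intervals as at other shared ones. The log2 ratio of summit reads, zcrest 2 over zcrest 1 with the median of all shared intervals set to 0, had a median of -0.08 (-0.20 to 0.07) and an SD of 0.64 over the 158 intervals. Other shared intervals had a median of 0.00 and an SD of 0.74. A difference of at least 2-fold was found towards zcrest 2 in 7 isolated intervals, or 4.43% (1.80% to 8.92%), where 6.27% of all shared intervals had one. Towards zcrest 1 it was found in 10, or 6.33% (3.08% to 11.3%), where 9.92% of all shared intervals had one. Both counts were near the background. The Spearman correlation of summit reads between the lines was 0.56 across the 158 isolated intervals and 0.57 across the 33688 others, each a description across intervals that share 2 libraries.

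**Figure D4:**
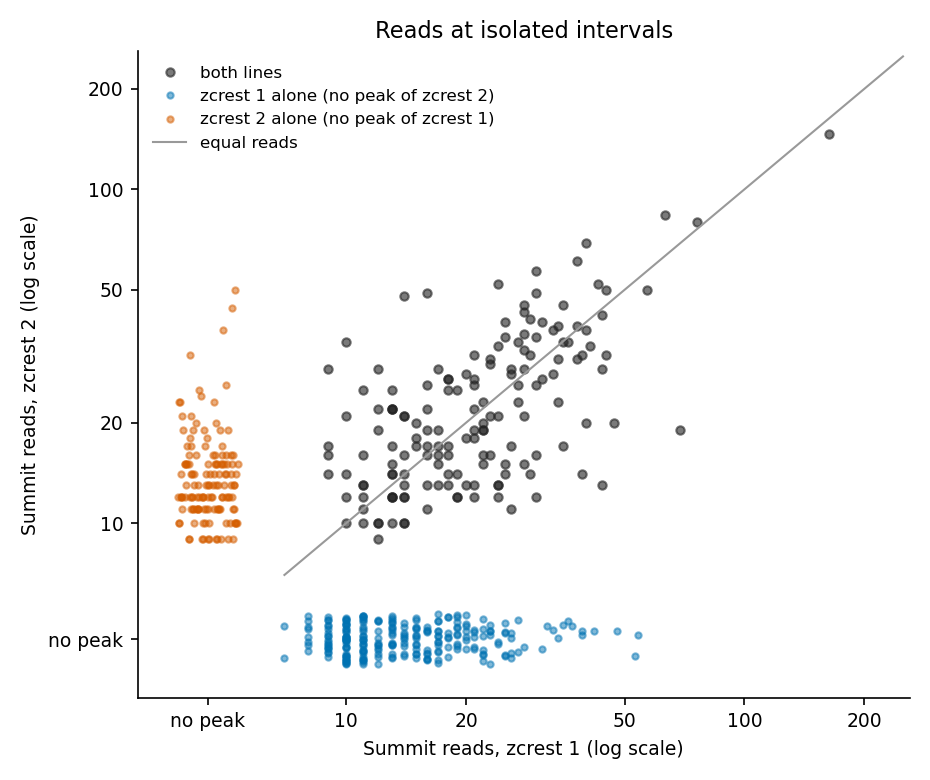
Summit reads of the 534 isolated intervals in zcrest 1 (x axis, log scale) and zcrest 2 (y axis, log scale); black points are the 158 intervals in both lines, blue and orange points, spread at random along the position marked no peak, those in 1 line. Single-line intervals have a median of 13 reads in each line, against 21 and 20 at the shared ones.

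The strongest isolated region was among the strongest regions of the whole genome. It lay on chromosome 2 at 13838693 to 13839329, with its neighbours 69.5 kb and 67.7 kb away. It had 163 reads at its summit in zcrest 1 and 146 in zcrest 2, ranked 4 and 13 in the lists by -log10 q, and was enriched 18.5-fold and 15.0-fold. No other isolated region came near it: the next highest had 84 reads in either line. That region lay on chromosome 25 at 3581152 to 3581864, with 63 reads in zcrest 1 and 84 in zcrest 2. Another, on chromosome 1 at 27448565 to 27449357, had 76 and 80 reads. These 3 regions were thus strong in both lines alike.

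The remaining 2 of the 5 strongest shared regions were less equal, and only the one on chromosome 16 differed by at least 2-fold. On chromosome 16 at 50174391 to 50174996 zcrest 1 had 69 reads and zcrest 2 had 19, a log2 ratio of -1.95 after setting the median to 0, which is the lowest of all 158. On chromosome 14 at 29564892 to 29565594 zcrest 1 had 30 reads and zcrest 2 had 57. The highest ratio, 1.72, also belonged to a region of chromosome 14, at 34070182 to 34071565, with 10 reads in zcrest 1 and 35 in zcrest 2, and at 1384 bp it was the second widest of all isolated intervals. The widest, on chromosome 3 at 3904655 to 3906217, was 1563 bp long and joined 2 peaks of zcrest 1 with 1 of zcrest 2. The other 3 of the 5 widest, on chromosomes 21, 12 and 14, were 1074 to 1207 bp long. All 5 were in both lines, where 29.6% of the isolated intervals were. A shared interval joins peaks of both lines, so a choice by union width favours shared ones.

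Isolated regions of a single line reached lower read numbers. In zcrest 1 alone the strongest was on chromosome 7 at 38830329 to 38830915, and its 54 reads gave a 14.8-fold enrichment. Its neighbours lay 82.2 kb and 92.5 kb away. It was followed by chr25:11911001-11911820, chr16:29327228-29327794, chr4:1080291-1080794 and chr16:10643615-10644366. Their summits had 53, 42, 39 and 48 reads. They were picked as the strongest, so they lie high among the isolated intervals of zcrest 1 alone, whose 75th percentile was 19 reads. In zcrest 2 alone the strongest was on chromosome 15 at 18466722 to 18467320, with 44 reads and a 14.9-fold enrichment. After it came chr21:34385895-34386618, chr5:61376946-61377600, chr4:23245350-23245766 and chr1:58964094-58964665. These had 50, 38, 26 and 25 reads at their summits. They too were picked as the strongest, and the 75th percentile of isolated intervals of zcrest 2 alone was 15. Read numbers outside called peaks were not analysed here, so a region called in 1 line may be open below the calling threshold in the other.

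The 5 most remote regions had 12 to 26 reads at their summits. Of these, 4 were open in a single line, as were 376 of all 534 isolated intervals. The median distance to the nearer neighbour was 59756 bp at isolated intervals in both lines and 58856 bp at those in 1 line. The farthest from any neighbour lay on chromosome 15 at 11400479 to 11400820, with gaps of 305 kb and 334 kb on its sides, and it was open in zcrest 1 alone with 15 reads. Next came chromosome 7 at 18364083 to 18364571, in zcrest 1 alone with 26 reads and gaps of 242 kb and 194 kb. On chromosome 1 at 34668698 to 34669071 a region with gaps of 169 kb and 159 kb was open in both lines, with 21 reads in zcrest 1 and 18 in zcrest 2. Chromosome 4 at 11687009 to 11687408 (13 reads, zcrest 2 alone) and chromosome 15 at 8125861 to 8126108 (12 reads, zcrest 1 alone) completed the 5 most remote. Most isolated intervals were far closer to the limit, with a median distance to the nearer neighbour of 59083 bp and the middle 50% between 53588 and 70014 bp. The 3 just inside the limit, at 50028, 50069 and 50088 bp, were open in 1 line each, with 11, 10 and 20 reads. Of the 3 just outside, at 49990, 49906 and 49893 bp, 1 was in both lines, with 9 reads in zcrest 1 and 19 in zcrest 2, and the other 2 had 10 reads each.

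Isolated intervals were unevenly spread over the chromosomes. Every chromosome held at least 1, with a median of 17. Chromosome 4 held 81, or 15.2% of all isolated intervals, while it held 3.0% of all intervals. The chromosomes richest in them, as a share of their own intervals, were chromosome 4 with 3.33% (2.65% to 4.12%), chromosome 15 with 1.73% (1.23% to 2.37%) and chromosome 7 with 1.51% (1.15% to 1.95%). The poorest were chromosome 19, where 1 of 4361 intervals was isolated (0.0229%), chromosome 13 with 5 of 4145 (0.121%) and chromosome 6 with 5 of 3995 (0.125%). These differences follow the density of open regions, which the rule uses. Chromosome 4 had 39.2 intervals per Mb and chromosome 19 had 86.8, and gaps of more than 50 kb made up 51.4% of the span of chromosome 4 and 6.97% of that of chromosome 19.

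**Figure D5:**
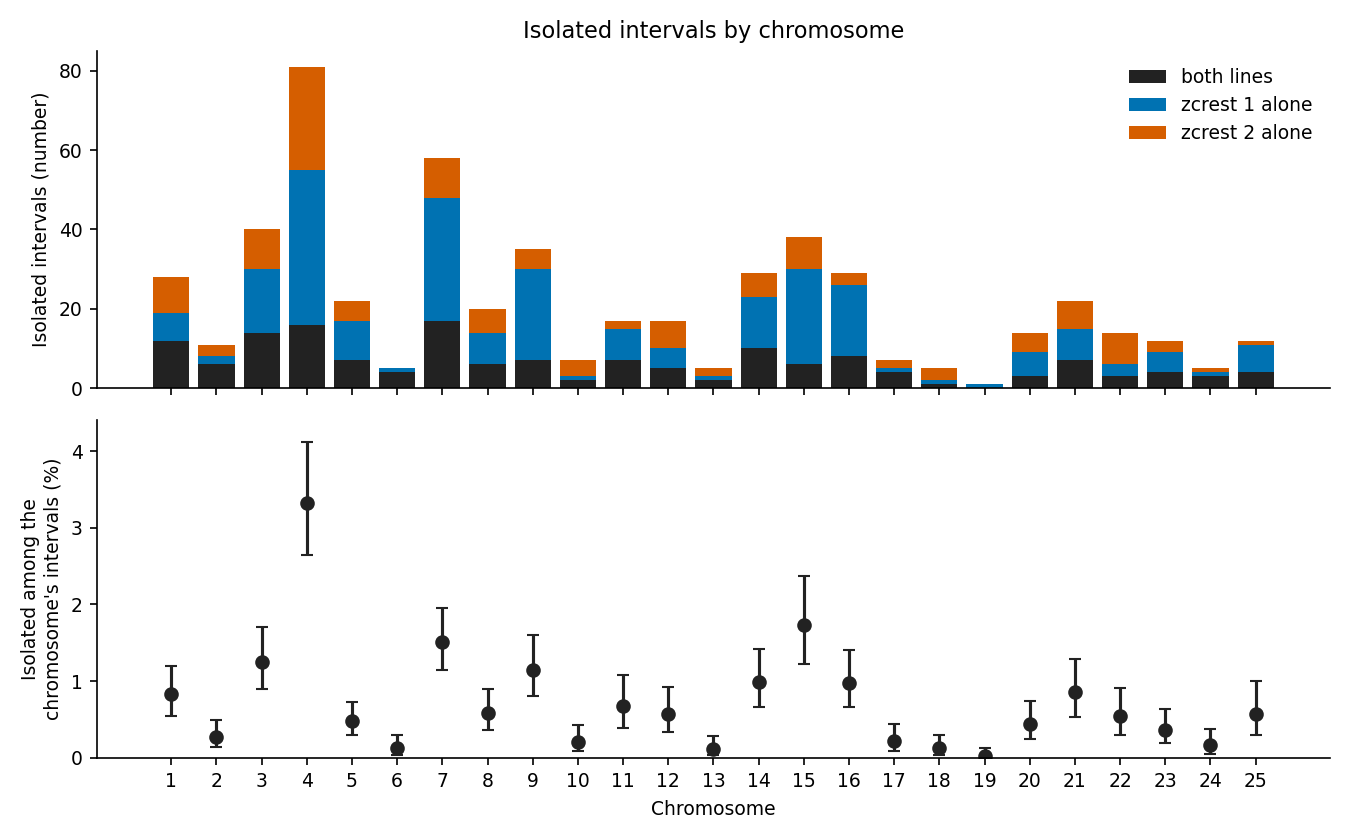
Number of isolated intervals on each chromosome (top), stacked by presence in both lines (black), zcrest 1 alone (blue) and zcrest 2 alone (orange), and the share of each chromosome's intervals that are isolated (bottom, %, with 95% exact binomial intervals). Chromosome 4, with 81 isolated intervals and a share of 3.33%, stands above all others.

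Chromosomes 15, 4 and 9 had the lowest shares of isolated intervals in both lines among the chromosomes with at least 10. On chromosome 4, of 81, 16 were in both lines (19.8%), 39 in zcrest 1 alone and 26 in zcrest 2 alone, and of its other intervals 27.8% were in both lines. The 6 windows of 5 Mb from 10 to 40 Mb held 51 of the 81, between 6 and 11 each, among 175 to 198 intervals of all kinds per window. The chromosome's other windows up to 60 Mb held 4 to 6 isolated intervals each, among 170 to 223. On chromosome 9, 7 of 35 were in both lines (20.0%), against 39.4% of its other intervals. On chromosome 15, 6 of 38 were in both lines (15.8%), against 36.7% of its other intervals, and on chromosome 7, 17 of 58 were (29.3%), against 36.3%. Of the 18 chromosomes with at least 10 isolated intervals, 16 had a lower share in both lines among these than among their other intervals, and chromosomes 2 and 11 had a higher one. Without chromosome 4, 142 of 453 isolated intervals (31.3%) were in both lines, against 42.2% of the others.

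Where a chromosome held more single-line intervals of 1 line among its other intervals, its isolated ones mostly leaned the same way. This was so on 20 of the 24 chromosomes with unequal isolated numbers, and not on chromosomes 2, 10, 11 and 17. On chromosome 16, 18 were in zcrest 1 alone and 3 in zcrest 2 alone, and the other intervals of the chromosome stood at 1628 and 245. On chromosome 9 the isolated numbers were 23 and 5, with 1358 and 464 elsewhere, and on chromosome 15 they were 24 and 8, with 1116 and 250 elsewhere. Chromosomes 22 and 12 held more of zcrest 2 alone, 8 against 3 and 7 against 5, as did their other intervals, with 777 against 678 and 1156 against 579. Chromosome 3 was milder among the isolated intervals, with 16 of zcrest 1 and 10 of zcrest 2, than among the others, with 1314 and 491. In all, 16 chromosomes held more isolated intervals of zcrest 1 alone, 8 held more of zcrest 2 alone and 1 held equal numbers. Part of the agreement follows from the lean of the whole lists, with 35.3% of all intervals in zcrest 1 alone and 23% in zcrest 2 alone. Several agreements rest on close numbers: 8 against 7 on chromosome 21, 6 against 5 on chromosome 20, and 1 against 0 on chromosomes 6 and 19. Numbers were close as well on chromosomes 2 and 17, which did not agree, with 2 against 3 and 1 against 2. The lean was not tested on isolated intervals by themselves.

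Of the 534 isolated intervals, 132 had another isolated interval as a direct neighbour. The rule favours this, since a neighbour of an isolated interval already has a gap of more than 50 kb on 1 side. No number expected from the rule was computed, so no clustering is read from this count. The 534 lay in 463 sparse stretches, of which 402 held a single isolated interval, 52 held 2, 8 held 3 and 1 held 4. Measured from flank to flank these stretches covered 79.7 Mb, or 5.88% of the distance between the first and last intervals of the chromosomes. The stretch with 4 was on chromosome 9 between 38492075 and 38807500. Its regions were open in zcrest 2 alone (19 reads), in both lines (11 and 13 reads), in zcrest 1 alone (26 reads) and in both lines (26 and 28 reads). The window of 35 to 40 Mb on chromosome 9, which holds it, had 14 isolated intervals among 166, the most of any of 284 windows of 5 Mb. Of these 14, 4 were in both lines and 9 in zcrest 1 alone. Windows with at least 5 numbered 31 and held 207 of the isolated intervals, and 98 windows held 0. Among 71 pairs of isolated intervals that were direct neighbours, 37 had the same status (both lines, zcrest 1 alone or zcrest 2 alone) and 11 were in both lines on each side. Some pairs match from the make-up of the set by itself, since 44.9% of isolated intervals were in zcrest 1 alone. The share of like pairs among all neighbouring intervals was not computed, so no likeness of neighbours is read from this count.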

How the data were processed

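One peak list per library was used, on the build Zv9. Peaks were called with MACS2 2.1.0, per the submitters' processing notes, and separately for each library, by the peak names in the deposited lists. The aligner, duplicate handling and read shift are not stated there. The deposited lists give a summit position, the fold enrichment there, -log10 p and -log10 q, and a score, which is 10 times the -log10 q without decimals. The lowest deposited -log10 q was 1.31 and 1.32, a threshold of 0.05. Whole-number summit reads and local backgrounds were solved from the deposited fold enrichment and -log10 p by trying up to 800 reads, and every peak was met within 0.001. Where an interval held several peaks of a line, the one of highest -log10 q gave its reads, enrichment, background and width. Shares carry Clopper-Pearson intervals and medians order-statistic intervals. Intervals joined at 1 bp of overlap, 3 mitochondrial peaks per list were left out, and no test was made.

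The intervals, comparisons and named regions were chosen with earlier results of these data known. Regions were named by rule: the 5 strongest by -log10 q in both lines and in each line alone, the 5 widest, the 5 most remote, the 3 on each side of the 50 kb limit, and the 3 chromosomes richest and poorest in isolated intervals. Other chromosomes and the region of highest ratio, the stretch of 4 and the windows were chosen after their values were seen. Scripts were tested on simulated data. Python 3.11.15, numpy 2.4.6, pandas 2.3.3, scipy 1.17.1 and matplotlib 3.10.9 were used.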

Additional observations from a re-analysis of the deposited data

How the results depend on the processing

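Isolation at 25 kb gave 4145 intervals, of which 35.8% were in both lines (a difference of -6.27 percentage points from the others) and 7.31% lay on chromosome 4, and at 100 kb it gave 21, of which 42.9% reached a -log10 q of 10. Weak peaks fill gaps, so peaks with a -log10 q of at least 5 gave 1166 isolated intervals (median width 443 bp, 10.2% on chromosome 4, 50.3% at a -log10 q of 10) and of at least 10 gave 2564 (35.6% in both lines, 568 bp, 7.37%). With lists of equal length 11.5% lay on chromosome 4, and with peaks joined within 1 kb the median width was 411 bp. With summits within 100 bp required, 24.9% were in both lines, a difference of -7.37 points. The median width of deposited peaks was 342 bp in zcrest 2. At equal strength, taken as the higher summit reads of the 2 lines, the difference in share was -0.89 points (-4.74 to 3.18), but this measure is by construction higher where both lines have a peak. Its sign changed with the setting. It was 1.69 points at 25 kb (0.23 to 3.17) and 2.36 points with summits within 100 bp (-1.26 to 6.25). It was -1.68 points with peaks of a -log10 q of at least 5 (-4.35 to 1.08) and -1.35 points at 10 (-3.20 to 0.54). With -log10 q as strength, the difference at equal strength was -7.70 points (-11.5 to -3.63). By the reads of zcrest 1 alone it was -7.62 points (-12.5 to -2.62), and neither of these intervals spans 0. By the reads of zcrest 2 alone it was -2.04 points (-7.92 to 3.77). The comparisons within 1 line were alternatives chosen after seeing the data, as was the weighting by chromosome. The isolated share was below that of the others under all 12 alternatives run for the difference not matched on strength, of which 1 weights the others by chromosome, but the interval at 100 kb spans 0. No paired analysis was possible because each line has 1 library. In the weakest class of zcrest 1 a peak rests on 7 to 10 reads, and the part of depth was not tested.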
